A study of Mus musculus with 10 samples.

Results

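A group of 10 genes of zinc and metal handling was followed in RNA-seq counts from mouse libraries that the series record names medial habenula. In 2 of the 10 libraries the markers of that region were low, as given below. The genes were metallothioneins Mt1, Mt2 and Mt3, zinc-sensing transcription factor Mtf1, exporters Slc30a1, Slc30a3 and Slc30a10, and importers Slc39a8, Slc39a10 and Slc39a14. These are 10 of the 56691 genes in the deposited table, taken by symbol. They were chosen with the difference between the groups already known for Mt1 and Mt2, so for all 10 that difference is described here and no p is given. The series holds 10 wild-type mice with 1 library each. The 4 controls received intraperitoneal saline until tissue was taken on day 17. The 6 withdrawal mice received nicotine ditartrate at 4 mg/kg by the same route, 2 injections a day for 14 days. Their injections were saline from day 15, and their tissue was also taken on day 17. Strain, sex and age are not in the labels used here.

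Metallothioneins are small cysteine-rich proteins of the cytoplasm that bind zinc and copper. Their genes Mt1 and Mt2 respond to free zinc through Mtf1, which binds metal response elements in their promoters, and they also respond to glucocorticoids and oxidative stress. Zinc leaves the cytoplasm through the Slc30a (ZnT) family and enters it through the Slc39a (ZIP) family. In brain, Mt1 and Mt2 are known chiefly from astrocytes and vessels, Mt3 from neurons and astrocytes, and Slc30a3 from glutamatergic terminals, where it loads zinc into synaptic vesicles.

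RefSeq promoter windows (GRCm38.p6, 250 bases before to 50 after the annotated start) matched 9 of the 10 genes, with 12 windows in all. The metal response element core was searched as TGCACNC or TGCGCNC on both strands. It was present in 25.7% of all 32851 windows of this length, and at least 2 matches were present in 7.11%. Mt2 held 4 matches, Mt1 and Slc30a10 held 3 each (of the 3 in Slc30a10, a pair overlapped), and Slc30a1 held 2. Mt3 and 1 of the 2 windows of both Slc30a3 and Slc39a8 held 1 match, while Mtf1 and both windows of Slc39a10 held none. The 3 metallothioneins, neighbours that differ in their values below, and Slc30a1, a well-known Mtf1 target, are shown with the matched letters in capitals. They lie on the plus strand, and the counts themselves were made on mm39.
Mt1, chr8:94178839-94179138: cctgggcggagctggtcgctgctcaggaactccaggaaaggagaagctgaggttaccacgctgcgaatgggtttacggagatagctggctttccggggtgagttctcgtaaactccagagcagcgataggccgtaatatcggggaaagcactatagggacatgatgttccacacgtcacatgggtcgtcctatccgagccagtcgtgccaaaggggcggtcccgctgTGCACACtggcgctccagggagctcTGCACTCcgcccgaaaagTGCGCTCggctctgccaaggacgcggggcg
Mt2, chr8:94172368-94172667: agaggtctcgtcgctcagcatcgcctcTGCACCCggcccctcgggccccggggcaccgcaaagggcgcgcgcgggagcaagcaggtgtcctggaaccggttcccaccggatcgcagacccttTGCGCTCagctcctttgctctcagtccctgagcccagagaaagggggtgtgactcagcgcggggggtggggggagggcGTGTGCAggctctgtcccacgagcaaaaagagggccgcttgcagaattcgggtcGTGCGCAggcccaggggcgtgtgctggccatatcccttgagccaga
Mt3, chr8:94152357-94152656: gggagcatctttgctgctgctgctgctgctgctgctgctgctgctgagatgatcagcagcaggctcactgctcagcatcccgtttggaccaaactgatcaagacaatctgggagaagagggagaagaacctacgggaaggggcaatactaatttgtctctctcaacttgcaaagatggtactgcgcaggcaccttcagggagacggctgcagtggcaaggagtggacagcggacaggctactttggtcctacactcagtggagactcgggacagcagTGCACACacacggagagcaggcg
Slc30a1, chr1:191906531-191906830: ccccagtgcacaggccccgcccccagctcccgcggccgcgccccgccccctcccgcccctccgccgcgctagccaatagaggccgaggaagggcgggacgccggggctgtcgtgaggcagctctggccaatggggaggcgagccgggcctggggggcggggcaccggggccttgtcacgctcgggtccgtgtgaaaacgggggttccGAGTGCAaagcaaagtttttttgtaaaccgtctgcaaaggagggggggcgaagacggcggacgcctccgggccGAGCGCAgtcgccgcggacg
The glucocorticoid receptor core TGTTCT was present in 19.0% of all windows, and among these genes in those of Mtf1 and Slc30a3. The antioxidant response element TGACNNNGC was present in 12.4% of all windows, and in those of Mt2, Slc30a1 and Slc39a8. A match describes letters and is not a binding site. These windows do not show sites farther from the start, so a gene without a match may still have one elsewhere.

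Library totals ran from 15023448 to 22026333 counts. The unit used for levels is CPM, a count per 1e+06 counts of the library after TMM scaling, and ± is the SD over the 4 controls or the 6 withdrawal libraries. The labels name sorted cholinergic neurons in one field and medial habenula tissue in the series record, and astrocyte markers, led by Slc1a2 and Aldoc, summed to 2838 CPM or more in all 10 libraries. The 8 medial habenula markers, led by Nwd2 and Chrna3, summed to between 1047 and 1608 CPM in 8 libraries. In control 2 and withdrawal 2 they summed to 26.5 and 29.8 CPM, so the change of each of the 9 genes that could be tested is also given for the other 8 libraries (3 controls and 5 withdrawal). In bulk RNA, fewer cells of a type and less RNA per cell cannot be told apart.

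Mt1 and Mt2 were lower in every withdrawal library than in any control, and Mt2 by more than Mt1, while Mt3, their neighbour on the chromosome, overlapped between the groups. Mt2 (ENSMUSG00000031762) lay at 51.6, 50.01, 49.3 and 53.5 CPM in controls 1 to 4. In withdrawal 1 to 6 it ranged from 20.2 to 27.5 CPM, with a median of 23.2 CPM. No withdrawal library came near the lowest control, and control 2 did not stand apart. The log2 change of Mt2 was -1.11 (SE 0.1003), and -1.18 (SE 0.0966) in the 8 libraries. Mt1 (ENSMUSG00000031765) lay at 91.0, 89.6, 87.7 and 95.2 CPM in the controls. Its withdrawal libraries ranged from 45.1 to 66.4 CPM with a median of 55.9 CPM, the highest being withdrawal 2. The log2 change of Mt1 was -0.71 (SE 0.0971), and -0.78 (SE 0.0835) in the 8 libraries.

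**Figure D1:**
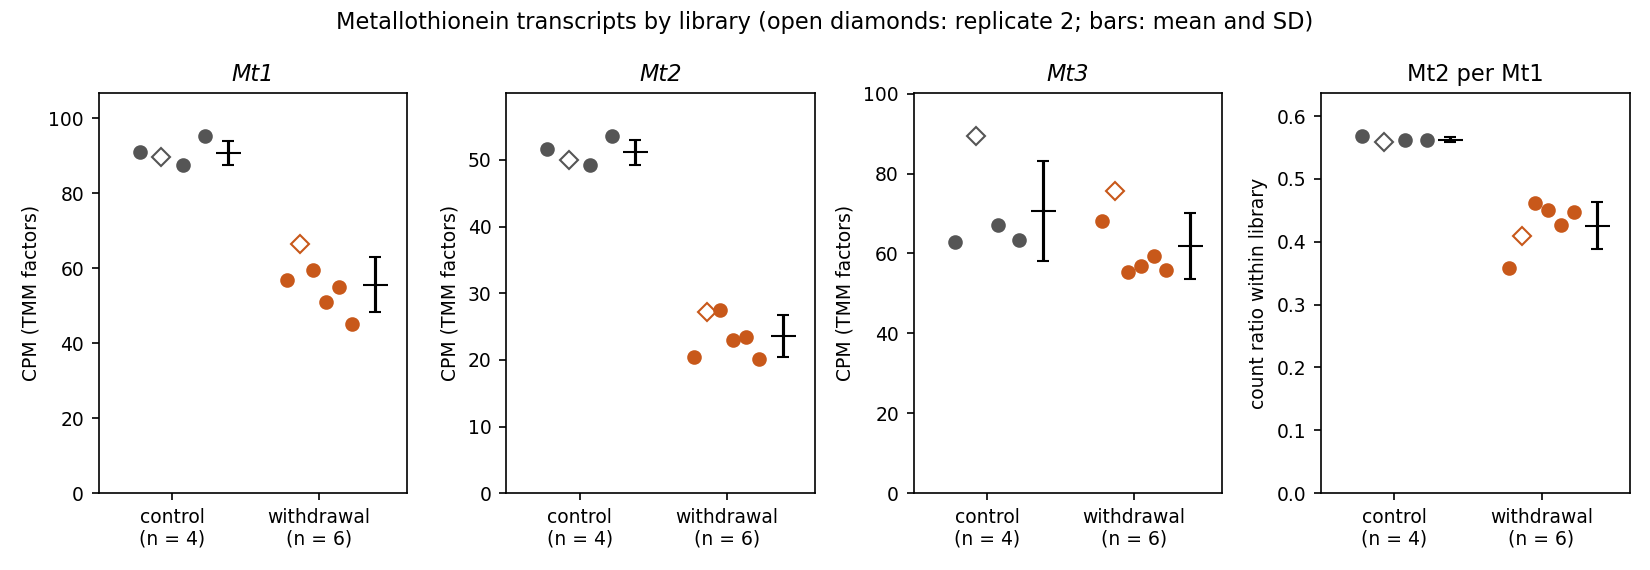
Mt1, Mt2 and Mt3 in CPM and the ratio of Mt2 to Mt1 counts, by group, with 1 point per library, open diamonds for replicate 2 of each group, and bars for mean and SD. All 6 withdrawal libraries lie below all 4 controls for Mt1 (at most 66.4 CPM against at least 87.7 CPM), Mt2 and the ratio, and Mt3 overlaps.

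The ratio of Mt2 to Mt1 counts within a library, which does not depend on the scaling of libraries, also separated the groups. In controls 1 to 4 it was 0.568, 0.558, 0.562 and 0.562, a mean of 0.563 ± 0.00391 (SD, n = 4). In withdrawal it ranged from 0.359 in withdrawal 1 to 0.461 in withdrawal 3, with a mean of 0.426 ± 0.0376 (SD, n = 6). The 4 controls were nearly identical, and the withdrawal libraries varied more and lay wholly below them. The summed level of Mt1 and Mt2 was 142 ± 5.06 CPM (SD, n = 4) in controls and 79.2 ± 9.91 CPM (SD, n = 6) in withdrawal. The antisense gene Gm45774, named here for its position, shares 432 of the 588 exon bases of Mt2 in GENCODE M21. It held 10 to 53 counts in a library against 342 to 1149 for Mt2, and the strand setting of the counting is not given in the sources used here, so the reads of the pair cannot be told apart. Mt1 and Mt2 are also similar in sequence and may share reads.

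Mt3 (ENSMUSG00000031760), the brain form of the family, had a log2 change of -0.19 (SE 0.128), and -0.13 (SE 0.0764) in the 8 libraries. Its controls lay at 62.8, 89.3, 67.1 and 63.4 CPM, and its withdrawal libraries between 55.3 and 75.5 CPM with a median of 58.1 CPM. Control 2 and withdrawal 2 were the highest of their groups, and without control 2 the log2 change was -0.07. Mt4, the form of stratified epithelia, had 6 counts in all 10 libraries together and was not tested.

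Per length, the 3 metallothioneins were the most abundant of the 10 genes. In the authors' FPKM, which also scale to gene length, Mt2 stood at 83.9 ± 9.93, Mt1 at 70.3 ± 8.02 and Mt3 at 63.0 ± 4.26 FPKM in controls (SD, n = 4). In withdrawal the order was Mt3 at 58.7 ± 6.80, Mt1 at 45.2 ± 5.24 and Mt2 at 40.6 ± 5.17 FPKM (SD, n = 6). The libraries of neighbours in that order overlapped, except Mt3 and Mt1 in withdrawal. Within each library, Mt2 was above Mt1 in all 4 controls (1.18 to 1.20 times in FPKM) and below it in all 6 withdrawal libraries (0.761 to 0.978 times). That side depends on the authors' gene lengths, which FPKM and counts imply to be 1246 bases for Mt1 and 588 bases for Mt2, whereas the coding transcripts in GENCODE M21 are 549 to 1085 and 388 to 511 bases long. Mt3 made up 29.2 ± 3.92% of the summed metallothionein FPKM in controls and 40.6 ± 3.07% in withdrawal. These shares and the place of Mt3 in the order also depend on its implied length of 1066 bases. The coding transcripts of Mt3 in GENCODE M21 are 440 to 536 bases long. Below the metallothioneins came Slc39a10 at 23.1 ± 1.42 FPKM in controls and 25.5 ± 2.05 FPKM in withdrawal. Slc30a3, Slc30a1, Slc39a14, Mtf1 and Slc30a10 had group means between 3.45 and 12.04 FPKM, and most neighbours among these 5 overlapped. Slc39a8 was the lowest, at 0.463 ± 0.118 and 0.645 ± 0.0822 FPKM.

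Of the 8 listed astrocyte markers none was called by edgeR over the 10 libraries, where 0.208% of all tested genes were called. At an unadjusted p under 0.05 there were 0, against 2306 of all 14928 tested genes. In the 8 libraries 3 of these markers were called, all lower, against 14.0% of all tested genes called and 7.63% called lower. Their summed level, to which Slc1a2 gave the most, was lower in withdrawal in the 8 libraries and high in the other 2. The 8 markers, none at 0 in any library, summed to between 3539 and 4042 CPM in controls 1, 3 and 4 and to between 2838 and 3323 CPM in withdrawal 1 and 3 to 6. Control 2 and withdrawal 2 had the highest sums, 6036 and 5148 CPM, with Mt1 and Mt2 at different places in their groups. In control 2 Mt2 was 50.01 CPM, within the 49.3 to 53.5 CPM of the controls. In withdrawal 2 Mt1 was the highest of its group at 66.4 CPM, and the sum of Mt1 and Mt2 was 93.5 CPM, against 65.3 to 87.0 CPM in the other withdrawal libraries. For Slc1a2, the main astrocyte glutamate transporter, the change was -0.62 on the log2 scale (adjusted p = 0.427 by edgeR), and -0.50 in the 8 libraries (adjusted p = 0.0447 by edgeR). Gfap, the astrocyte intermediate filament gene, had -0.50 (adjusted p = 0.366 by edgeR) and fell by 0.80 in the 8 libraries (adjusted p = 0.00633 by edgeR). Aldh1l1, a folate enzyme gene, had -0.18 (adjusted p = 0.327 by edgeR) and fell by 0.22 in the 8 libraries (adjusted p = 0.0377 by edgeR). Of the 5 not called in either fit, Aldoc was at 0.24 and S100b at 0.06 in the 8 libraries, and Aqp4, Slc1a3 and Gja1 were between -0.17 and -0.04. Endothelial and mural markers were led by Slc2a1 and Rgs5 (8 of 8 matched, none at 0). They summed to between 430 and 506 CPM in controls and between 342 and 439 CPM in withdrawal. Slc2a1 was lower in every withdrawal library than in any control, as were 1.69% of all tested genes. Its log2 change was -0.41 (adjusted p = 0.158 by edgeR), and -0.46 in the 8 libraries (adjusted p = 0.00515 by edgeR). None of the other vessel markers was called in either fit. In the 8 libraries Cldn5 and Flt1 were at 0.24 and 0.14, and Pecam1 and Vtn at -0.02 and -0.05. Cdh5, Rgs5 and Pdgfrb lay between -0.48 and -0.24. Choroid plexus markers were led by Ttr and Kl (8 of 8 matched, none at 0). They summed to between 83.5 and 10475 CPM in controls and between 113 and 13600 CPM in withdrawal. The part of cell content in the lower Mt1 and Mt2 was not tested.

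Mtf1 transcripts did not separate the groups. Mtf1 (ENSMUSG00000028890) lay at 36.7, 51.0, 44.4 and 42.1 CPM in the controls and between 33.9 and 49.3 CPM in withdrawal, with a median of 35.8 CPM. Both replicate 2 libraries were again the highest of their groups. The log2 change was -0.19 (SE 0.126) over 10 libraries and -0.20 (SE 0.0812) over 8. These are transcript levels and do not measure the activity of the protein.

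Among the exporters, Slc30a1 and Slc30a10 overlapped between the groups and Slc30a3 was set apart by control 2. Slc30a1 (ENSMUSG00000037434), which exports zinc across the plasma membrane, lay at 44.4, 43.1, 44.9 and 46.7 CPM in controls and at 33.8 to 45.2 CPM in withdrawal, with a median of 41.1 CPM. Its log2 change was -0.14 (SE 0.0832). In the 8 libraries it was -0.20 (SE 0.0815), and the 5 withdrawal libraries lay below the 3 controls, as for 11.5% of all tested genes. Slc30a3 (ENSMUSG00000029151) lay at 17.06, 84.6, 32.02 and 17.1 CPM in controls and between 10.3 and 23.0 CPM in withdrawal, with a median of 17.4 CPM. Control 2 was far above every other library. The log2 change was -1.17 (SE 0.437) with control 2, -0.41 without it and -0.52 (SE 0.244) in the 8 libraries. Hippocampal and cortical excitatory neuron markers, led by Slc17a7 and Wfs1 (8 of 8 matched, none at 0) summed to 2649 CPM in control 2, 884 CPM in control 3, and 429 and 483 CPM in controls 1 and 4. In withdrawal the sums were 284 to 553 CPM, the highest in withdrawal 2, which also had the most Slc30a3 of its group. The part of these cells in the Slc30a3 difference was not tested.

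Slc30a10 (ENSMUSG00000026614), which exports manganese, lay at 28.9, 32.2, 18.6 and 21.996 CPM in controls. In withdrawal it ranged from 18.9 CPM in withdrawal 2 to 34.2 CPM, with a median of 31.2 CPM. Its log2 change was 0.20 (SE 0.192), 0.08 without control 3 and 0.43 (SE 0.128) in the 8 libraries. The direction was opposite to that of Mt1 and Mt2, but both groups spanned most of the same range.

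**Figure D2:**
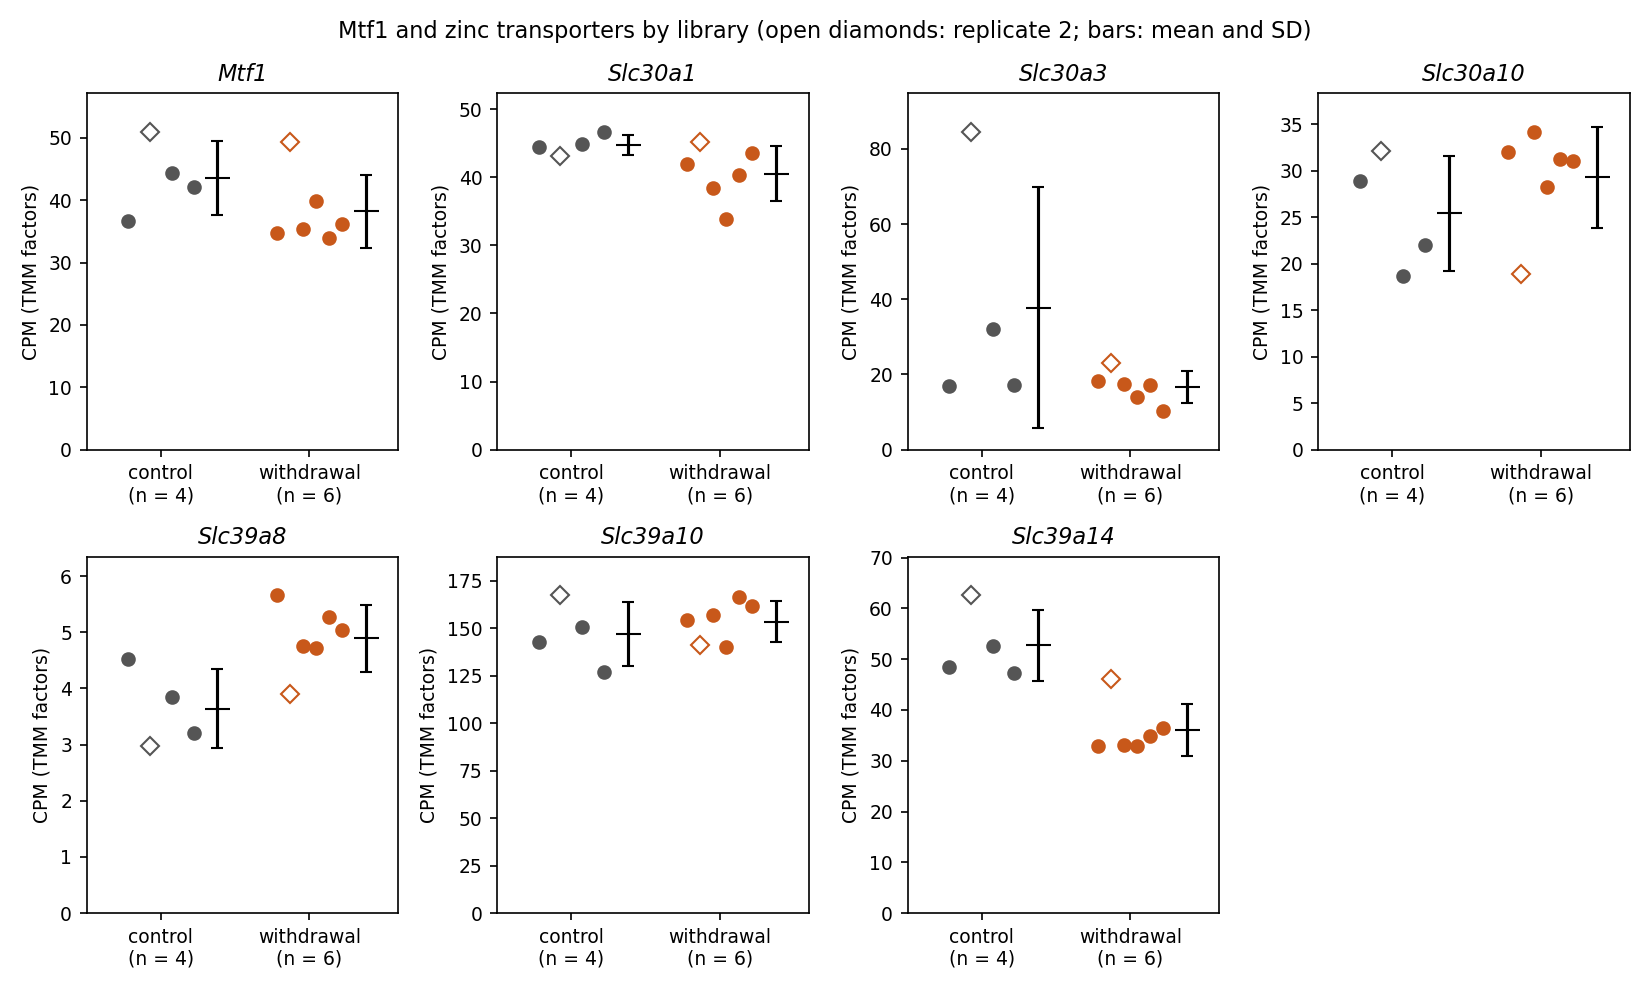
Mtf1 and the 6 zinc transporters in CPM by group, with 1 point per library, open diamonds for replicate 2 of each group, and bars for mean and SD. The groups separate for Slc39a14 (at most 46.0 CPM in withdrawal, at least 47.3 CPM in controls), and control 2 lies far above the rest for Slc30a3 (84.6 CPM).

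Among the importers, Slc39a14 was lower in all 6 withdrawal libraries, Slc39a8 was at low levels with higher means in withdrawal, and Slc39a10 overlapped. Slc39a14 (ENSMUSG00000022094), which imports zinc, manganese and iron, lay at 48.4, 62.6, 52.7 and 47.3 CPM in controls. Withdrawal ranged from 32.8 to 46.0 CPM with a median of 34.0 CPM. Withdrawal 2, the highest, came close to the lowest control. Without withdrawal 2 the highest was 36.5 CPM. The log2 change was -0.55 (SE 0.118), and -0.55 (SE 0.0639) in the 8 libraries. Slc39a8 (ENSMUSG00000053897), its close relative with the same metals, had only 54 to 107 counts in a library and did not pass the filter on low genes. It lay at 4.53, 2.97, 3.85 and 3.22 CPM in controls and at 3.91 to 5.66 CPM in withdrawal, with a median of 4.90 CPM. Only withdrawal 2 fell within the range of the controls. In the 8 libraries the 5 withdrawal libraries lay above the 3 controls, as for 11.9% of tested genes. Fitted without the filter, its log2 change was 0.42 (SE 0.181). Slc39a10 (ENSMUSG00000025986), a zinc importer of the plasma membrane, lay at 143, 167, 151 and 127 CPM in controls and at 140.1 to 166 CPM in withdrawal, with a median of 155 CPM. Its log2 change was 0.06 (SE 0.0869), and 0.15 (SE 0.073) in the 8 libraries.

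**Figure D3:**
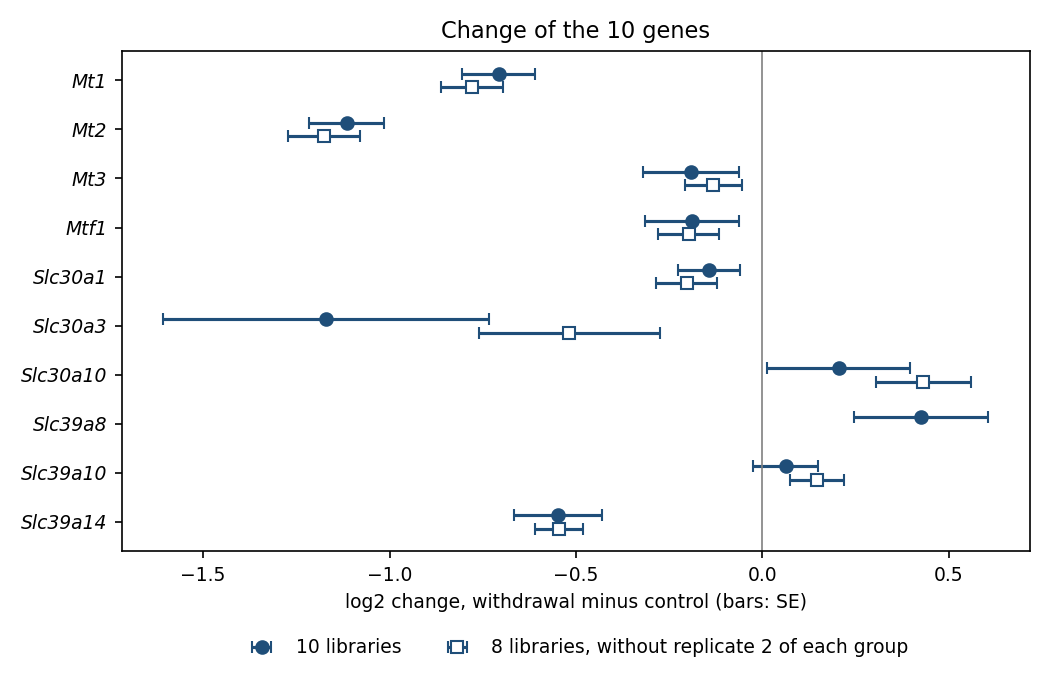
Log2 change of the 10 genes, withdrawal minus control, with SE, for 10 libraries (filled) and for the 8 without replicate 2 of either group (open). Mt2, Mt1 and Slc39a14 lie near the same place in both, from -1.11 to -1.18 for Mt2, and Slc30a3 moves from -1.17 to -0.52. Slc39a8 has no open point because it was not tested there.

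Of the 9 genes that passed the filter, 2 were called by the edgeR quasi-likelihood test across all genes, Mt1 and Mt2, both lower. Over all 14928 tested genes 0.208% were called and 0.174% were called lower. Mt1, Mt2 and Slc39a14 had groups that did not overlap, lower in withdrawal, as did 1.69% of all tested genes. In the 8 libraries 3 were called, the third being Slc39a14, against 14.0% of all genes called and 7.63% called lower. Mt2 was called whichever library was left out. Mt1 was called only without control 2 or withdrawal 2 among those 10 settings, and its log2 change lay between -0.76 and -0.65 in them. Because the genes were chosen from this comparison, these counts and calls support nothing further.

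The whole zinc transporter families were set beside the metallothioneins, so that genes were not picked for how they moved. Of 24 family genes, 20 passed the filter and none was called by edgeR over the 10 libraries, where 0.208% of all tested genes were called. Among the 20, 4 had an unadjusted p under 0.05, all lower, against 2306 of all 14928 tested genes, 1383 of them lower. Against 380 and 12 of all tested genes, DESeq2 called 1 of the 20, Slc39a14, and limma on log2(FPKM + 1) called 0. Their median log2 change was -0.09, with 14 of 20 lower, against a median of 0.003 and 49.4% lower over all genes. In the 8 libraries 2 of 20 were called, against 14.0% called and 7.63% called lower over all genes. Both were lower: Slc39a14 and, named after its values were seen, Slc30a7, an exporter into the Golgi, at -0.24 on the log2 scale (SE 0.0700, adjusted p = 0.0468 by edgeR). The median there was -0.16, with 16 of 20 lower, against 0.008 and 48.7% over all genes. Of the 20, 8 were lower at an unadjusted p under 0.05, against 2337 of all 14928 tested genes. Groups did not overlap for 5 of the 20, all lower, as for 11.5% of all tested genes. Without the 6 transporters already described, 11 of 15 were lower over 10 libraries, with a median of -0.07, and 2 had an unadjusted p under 0.05. In the 8 libraries 13 of these 15 were lower, with a median of -0.13, and 6 had an unadjusted p under 0.05, all lower. Groups did not overlap for 3 of these 15, all lower. The values over all genes are those given above for the same libraries.

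Among exporters outside the 10 genes, Slc30a9 averaged 203 ± 12.1 CPM in controls, against 218 ± 11.98 CPM in withdrawal (0.10 on the log2 scale, adjusted p = 0.472 by edgeR). Slc30a5, which loads zinc into the secretory pathway, averaged 58.6 ± 3.24 CPM, against 53.6 ± 5.83 CPM in withdrawal (-0.13 on the log2 scale, adjusted p = 0.472 by edgeR). Among importers, Slc39a6 averaged 77.3 ± 8.10 CPM, against 66.1 ± 3.79 CPM in withdrawal (-0.22 on the log2 scale, adjusted p = 0.267 by edgeR). Slc39a2 averaged 18.2 ± 5.68 CPM, against 13.1 ± 1.15 CPM in withdrawal (-0.48 on the log2 scale, adjusted p = 0.281 by edgeR), and Slc39a3 57.1 ± 17.0 and 47.3 ± 2.59 CPM (-0.27 on the log2 scale, adjusted p = 0.394 by edgeR). Without control 2 and withdrawal 2, the log2 changes of Slc39a2 and Slc39a3 were -0.29 and -0.06.

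Iron and copper handling genes, chosen as the neighbouring metal systems, were not called over the 10 libraries. Of 29 listed genes 25 passed the filter, with 0 called by edgeR, 0 by DESeq2, 0 by limma and 0 at an unadjusted p under 0.05. Over all 14928 tested genes these counts were 31, 380, 12 and 2306. The median log2 change of the 25 was -0.02, with 15 of them lower. The superoxide dismutase gene Sod1 averaged 125 ± 22.7 CPM in controls, against 146 ± 6.56 CPM in withdrawal (0.23 on the log2 scale, adjusted p = 0.347 by edgeR). The log2 changes were -0.15 for Sco1 and 0.15 for Commd1. Of the iron genes, Fth1, the ferritin heavy chain, averaged 1481 ± 357 CPM, against 1289 ± 366 CPM in withdrawal (-0.20 on the log2 scale, adjusted p = 0.665 by edgeR). The mitochondrial iron importer Slc25a28 and the iron importer Slc11a2 had log2 changes of 0.15 and 0.08. In the 8 libraries 2 of 25 genes were called, in opposite directions, a smaller share than the 14.0% of all tested genes. The median log2 change there was -0.16, with 18 of 25 lower, against 0.008 and 48.7% lower over all genes. Tfrc, the transferrin receptor, rose by 0.49 on the log2 scale (SE 0.122, adjusted p = 0.0305 by edgeR), and the copper-binding ferroxidase gene Cp fell by 0.62 (SE 0.165, adjusted p = 0.0371 by edgeR). Over 10 libraries these were 0.40 and -0.24. Cp lay at 11.7 to 66.9 CPM in controls, the lowest in control 2, where choroid plexus and meningeal markers were also lowest.

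**Figure D4:**
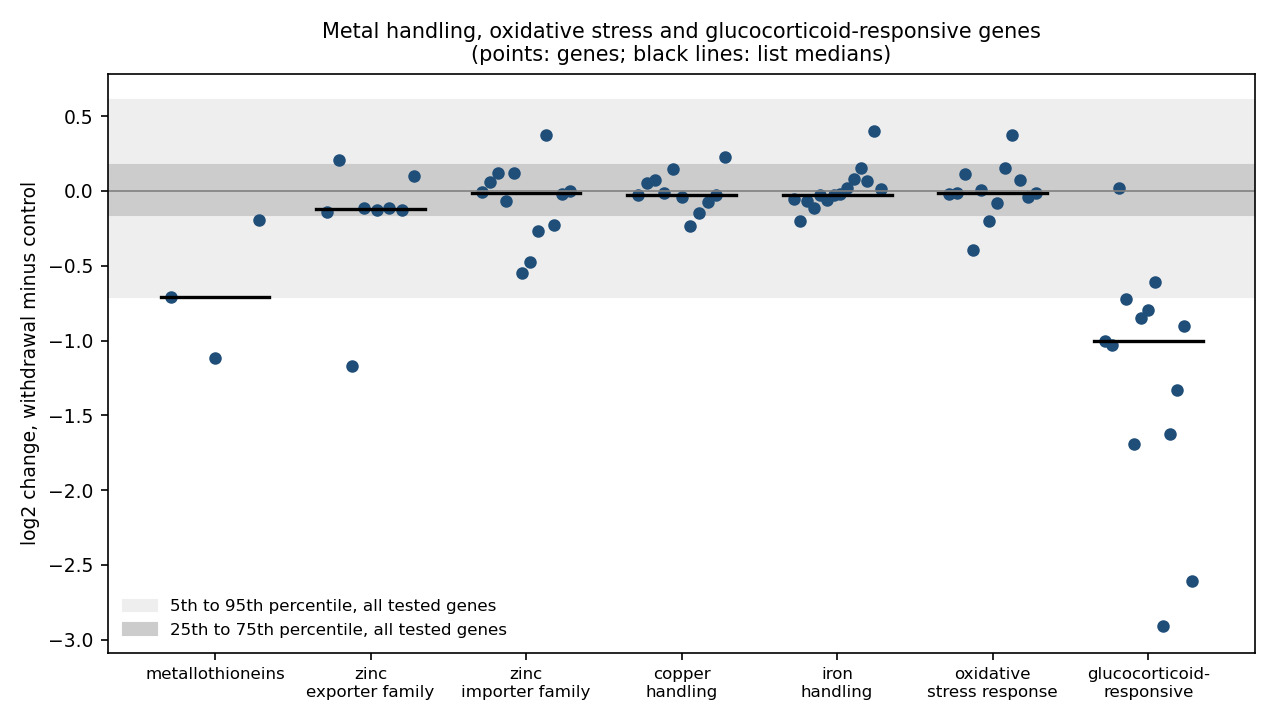
Log2 change, withdrawal minus control, of each tested gene by list over 10 libraries. Black lines are list medians, and the grey bands hold the middle 50% and the middle 90% of all tested genes. Mt1 and Mt2 lie at or beyond the lower edge of the wide band (-0.71), most transporter, copper and iron genes lie within it, and the glucocorticoid-responsive genes lie mostly below it.

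Glucocorticoid-responsive genes, which include Mt1 and Mt2 in many accounts, had lower means in 12 of 13 members of a list without the metallothioneins, with a median log2 change of -1.004. That list was chosen with these results known and is not independent evidence. Over all tested genes 0.208% were called and 49.4% were lower. The 7 called in the list were Fkbp5, Tsc22d3, Per1, Ddit4, Sult1a1, Nfkbia and Plin4, all lower. Fkbp5, whose product restrains the glucocorticoid receptor, averaged 78.0 ± 26.4 CPM in controls, against 24.1 ± 8.77 CPM in withdrawal.

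By the fixed measure of likeness, the root mean square gap between centred log2 CPM profiles over the 10 libraries, Mt2 was closest to Mfsd2a (gap 0.187), Ddit4 (0.204), Mt1 (0.22), Plekhf1 (0.223) and Nrros (0.224) among 12900 named genes. Mt1 was closest to Gpr17 (0.139), Ankrd13a (0.145), Mxd4 (0.154), Glul (0.155), the glutamine synthetase of astrocytes, and Hip1 (0.159). Mt2 ranked 55 in the list for Mt1. For Slc30a3 the closest were Sult2b1 (0.129), Galnt17 (0.145), Faah (0.167), Fam49a (0.176) and Adgrb2 (0.18). All these profiles share the same libraries and the group difference that chose Mt1 and Mt2.

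The genes beside the metallothionein cluster, taken by position in the RefSeq gene table of GRCm38.p6, were also examined. On one side lie Nudt21, Ogfod1 and Bbs2, and on the other Nup93, Slc12a3 and Herpud1. Slc12a3 was below the filter and none of the other 5 was called over 10 libraries, where 0.208% of all tested genes were called. Nup93, the nearest tested gene beyond Mt1, averaged 25.4 ± 5.11 CPM in controls, against 21.4 ± 2.61 CPM in withdrawal (-0.25 on the log2 scale, adjusted p = 0.382 by edgeR). Bbs2, the nearest beyond Mt4, averaged 39.8 ± 10.1 CPM, against 52.1 ± 7.58 CPM in withdrawal (0.39 on the log2 scale, adjusted p = 0.331 by edgeR). In the 8 libraries Ogfod1 and Herpud1, an endoplasmic reticulum stress gene, were called in opposite directions, where 14.0% of all tested genes were called, Ogfod1 by 0.28 (adjusted p = 0.044 by edgeR) and Herpud1 by -0.27 on the log2 scale (adjusted p = 0.0175 by edgeR).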

How the data were processed

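RNA was measured in 10 libraries, 4 control and 6 withdrawal, grouped by their titles. The deposited table held raw read counts per gene and, beside them, FPKM, as the authors computed them per the column headers. Both columns were deposited per the file headers. Build mm39, HISAT2 2.2.1, HTSeq 0.6.1 and cutadapt 1.9.1 are named by the submitters' processing notes. Annotation and strand setting are not given in the sources used here. Symbols came from GENCODE M21 (52073 of 56691 identifiers).

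A mean FPKM of 1 or more over the libraries was required, leaving 14928 genes, which hold no less than 99.05% of any library. The test was edgeR 4.0.16 quasi-likelihood with TMM factors in R 4.3.3, 2-sided, Benjamini-Hochberg over all genes, threshold 0.05. On simulated counts for 10 libraries it recovered 7.46% of genes changed 1.5-fold, 55.2% of those changed 2-fold and 78.8% of those changed 4-fold. For 8 libraries these shares were 35.8%, 83.6% and 97%. A gene that was not called may therefore still have changed. Of the 98 simulated calls for 10 libraries 4 were false, and of the 155 for 8 libraries 11 were false. Apart from the set changes, the simulated libraries shared the same expected gene proportions, so they held no differences in tissue content. DESeq2 1.42.0 and limma 3.58.1 on log2(FPKM + 1) were alternatives. The 10 genes, the lists and the tests were chosen with earlier results of these data known. Named genes were these 10, genes called or with the 4 smallest p in each pathway list, the 2 highest in CPM of each marker list used, and the 5 closest profiles (prior count 2). Outside that rule, Slc30a7 and the other astrocyte, endothelial and mural markers were named after their values were seen, and neighbouring genes and Gm45774 by position. Nothing says that libraries share litters or days, and p-values measure the spread between these libraries. Counts between replicates differed by more than sampling noise, with a chi-square per gene of at least 6.95.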

Additional observations from a re-analysis of the deposited data

Results flagged for a closer look

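In 20 groups checked (10 genes in each of the 2 groups of mice), 2 libraries were flagged as far from the rest of their group. The measure was the gap to the nearest library, divided by the range of the group. By chance alone about 1 in 20 groups is picked out. Mt3 in control 2 was 89.3 CPM, against 62.8 to 67.1 CPM in the other controls. Slc39a14 in withdrawal 2 was 46.0 CPM, against 32.8 to 36.5 CPM in the other withdrawal libraries. These are the libraries with the least medial habenula transcript.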

How the results depend on the processing

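Over all genes, 31 were called. DESeq2 called 380, limma called 12 on log2(FPKM + 1) and 10 on log2(FPKM + 0.1), and the 8 libraries without control 2 and withdrawal 2 gave 2088. Leaving out 1 library gave 4 to 893 calls, the most without withdrawal 2. Of the 10 genes, 2 were called, both limma fits called 1 (Mt2), and leaving out 1 library gave 1 to 3. For the zinc transporter families, with 0 called, DESeq2 gave 1, the 8 libraries 2 and leaving out 1 library 0 to 1. For iron and copper genes, with 0 called, the 8 libraries gave 2 and leaving out 1 library 0 to 1. With a replicate block edgeR called 0 genes and 0 of the 10. The replicate numbers are not said to pair mice: deviations of same-numbered libraries correlated from -0.13 to 0.31, and 1 of 4 controls correlated best with its own number. Mt1, Mt2, Mt3, Mtf1, Slc30a1, Slc30a3 and Slc39a14 were lower in withdrawal under all alternatives run, and Slc30a10 higher. Slc39a10 changed sign without control 4 (-0.002), and Slc39a8 was fitted only without the filter. The cause of these shifts was not tested.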

Other observations

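Oxidative stress response genes are another group to which metallothioneins are often counted. Of 12 measured members, none was called over 10 libraries by edgeR, DESeq2 or limma, and 0 had an unadjusted p under 0.05. Over all 14928 tested genes these counts were 31, 380, 12 and 2306. The median log2 change of the 12 was -0.01, with 7 of them lower. Hmox1, the inducible heme oxygenase, averaged 5.50 ± 0.882 CPM in controls, against 4.19 ± 1.42 CPM in withdrawal (SD, n = 4 and 6), or -0.39 on the log2 scale (adjusted p = 0.457 by edgeR). The log2 changes were 0.15 for the peroxiredoxin Prdx1, 0.07 for the autophagy adaptor Sqstm1 and 0.37 for the cystine transporter Slc7a11. Without control 2 and withdrawal 2, the change of Slc7a11 was 0.003 and that of Hmox1 -0.56. No member was called there, against 14.0% of all tested genes.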
